A study of Mus musculus with 8 samples.

Results

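The genes described here carry the symbols of protein families that splice, bind, unwind or export RNA. They were taken from the deposited table by symbol alone, as every transcript cluster with a symbol that starts with Hnrnp, Hnrp, Srsf, Sfrs, Sf3, Snrp, Prpf, Rbm, Ddx or Dhx, or with Nxf and a digit. A transcript cluster is a set of transcripts of the same gene that the array reads as 1 value. The rule found 19 of 2395 transcript clusters, grouped by symbol. They were 5 of the core spliceosome (Sf3, Snrp and Prpf), 2 SR proteins, 2 RNA-binding motif proteins, 8 helicases and 2 Nxf genes (the mRNA export group), and no hnRNP.

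The cells were the mouse neuroblastoma line neuro2a (N2a), and their RNA was read on Affymetrix Mouse Gene 1.0 ST arrays. The labels put 4 arrays in a group called vector, read here as the empty vector, and 4 in the Grp94 knockdown group. By the study's methods, the knockdown used vectors for an artificial microRNA against Grp94 (Hsp90b1), an endoplasmic reticulum chaperone. The methods name a pair of Grp94 constructs and, as controls, an empty vector and a non-targeting one. The labels tie neither constructs nor controls to arrays, and do not say that the arrays of a group came from separate cultures. If the control was the empty vector, loss of Grp94 and the presence of an artificial microRNA cannot be told apart.

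Only the authors' mean of each group was used, so no value per array, standard deviation or test can be given, and every comparison below is a description. Each mean is on a log2 scale and centred for its transcript cluster, so it holds no level of expression and cannot be set against that of another gene. The knockdown mean minus the vector mean is the difference used throughout. As the table was limited by the authors on an adjusted p, each of the 19 had already passed that limit, and a gene outside the table has no value here. The target itself, Hsp90b1, had a mean of 0.74 with the vector and -0.78 in the knockdown, a log2 difference of -1.52. Of 12 neuroblastoma markers 5 were listed, with log2 differences from -0.22 to 0.49, and of 9 markers of glia, fibroblasts, blood and endothelium none was, but centred means cannot show whether a marker is expressed. In a pool of cells, fewer cells of a type and less RNA per cell cannot be told apart.

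A pre-mRNA is spliced by the spliceosome, whose small nuclear ribonucleoproteins (snRNPs) carry a ring of Sm proteins (Snrp genes) and whose U2 snRNP holds the SF3 complexes at the branch site. SR proteins and hnRNPs bind the transcript and favour or repress the use of nearby sites. DEAD-box (Ddx) and DEAH-box (Dhx) helicases use ATP to remodel RNA and protein at each step. The receptor Nxf1 carries finished mRNA through the nuclear pore, which need not hold for every Nxf protein. Many of these proteins have further roles in ribosome assembly, transcription and mRNA decay, and neurons use splicing widely to make cell type-specific isoforms.

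Promoters of 16 of the 19 genes were found in RefSeq (build GRCm38.p6), and 3 (Nxf3, Ddx39 and Ddx23) have no entry there. The 250 bases before the start are printed for 4 of them, chosen after the values were seen, and for Hsp90b1 as a reference. Nxf7 has the largest difference, Ddx26b carries a close pair of CCAAT boxes, and Sf3b2 and Sf3b3 are subunits of the same complex with opposite signs. Each line runs 5′ to 3′ on the strand of the gene, and capitals mark CCAAT or its reverse complement ATTGG, the box bound by NF-Y, the factor the study is about. On these arrays the knockdown was directed at Grp94 and not at NF-Y, and whether NF-Y acts on these promoters was not tested.

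Nxf7 (chrX:135598778-135599027, minus strand): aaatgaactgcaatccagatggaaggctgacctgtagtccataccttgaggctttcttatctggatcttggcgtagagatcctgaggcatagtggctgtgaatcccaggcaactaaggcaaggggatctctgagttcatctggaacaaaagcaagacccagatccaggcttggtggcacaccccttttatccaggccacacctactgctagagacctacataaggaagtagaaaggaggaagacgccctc

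Ddx26b, now Ints6l (chrX:56454589-56454838, plus strand): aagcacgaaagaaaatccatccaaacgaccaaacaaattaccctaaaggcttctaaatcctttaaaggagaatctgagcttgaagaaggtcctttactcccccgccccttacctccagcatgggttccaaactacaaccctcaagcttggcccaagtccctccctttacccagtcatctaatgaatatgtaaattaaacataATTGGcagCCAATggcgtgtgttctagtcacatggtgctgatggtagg

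Sf3b2 (chr19:5295456-5295705, minus strand): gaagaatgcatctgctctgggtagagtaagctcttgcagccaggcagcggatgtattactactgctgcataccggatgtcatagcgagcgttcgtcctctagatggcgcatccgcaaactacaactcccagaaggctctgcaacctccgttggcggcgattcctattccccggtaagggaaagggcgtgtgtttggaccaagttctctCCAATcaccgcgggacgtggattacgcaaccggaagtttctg

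Sf3b3 (chr8:110846804-110847053, minus strand): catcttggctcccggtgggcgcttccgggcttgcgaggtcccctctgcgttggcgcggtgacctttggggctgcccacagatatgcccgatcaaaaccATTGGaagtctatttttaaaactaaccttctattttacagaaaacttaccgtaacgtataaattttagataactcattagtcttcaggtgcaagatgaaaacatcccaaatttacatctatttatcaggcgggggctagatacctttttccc

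Hsp90b1 (chr10:86705445-86705694, minus strand): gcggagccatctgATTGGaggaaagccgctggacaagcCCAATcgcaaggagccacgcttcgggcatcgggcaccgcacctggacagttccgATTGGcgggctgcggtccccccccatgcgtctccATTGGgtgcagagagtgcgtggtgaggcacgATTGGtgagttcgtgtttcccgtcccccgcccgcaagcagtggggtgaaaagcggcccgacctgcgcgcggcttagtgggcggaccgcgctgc

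The Hsp90b1 promoter holds 5 CCAAT boxes on both strands, which begin 237, 212, 158, 124 and 93 bases before the start. The Nxf7 window holds none. In Ddx26b the boxes begin 48 and 40 bases before the start, in Sf3b2 a box begins 42 bases before it, and in Sf3b3 it begins 152 bases before it.

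Searched on both strands, CCAAT was present in 6 of the 16 genes with a promoter (37.5%), against 37.5% of all 27025 genes in the RefSeq promoter table. The 6 were Ddx26b, Sf3b2 and Ddx28, which were lower in the knockdown, and Snrpd3, Sf3b3 and Snrpg, which were higher. ACGTG was also present in 6 of the 16 genes, against 18.5% of all genes. It is the core of the site bound by hypoxia-inducible factors, but is not particular to them. Of the 6, 2 were lower (Ddx17 and Sf3b2) and 4 higher (Sfrs4, Sfrs8, Prpf39 and Dhx33). TGATGNAA, the element bound by ATF4 with C/EBP partners, was in none of the 16, against 3.91% of all genes. A gene was counted if any of its promoters held the word, and some promoters of a gene overlap. The 16 genes had 24 promoters, against 32851 for all 27025 genes, so the members had more windows per gene in which to match. By promoter, ACGTG was in 37.5% of the members' windows and 16.6% of all. The background was every gene with a promoter entry, not the genes on the array or those listed. ACGTG contains the pair CG, and the base composition of the windows was not compared. Its higher share is therefore not read as an enrichment. The ACGTG of Ddx17 is in the second of its promoters only. For Snrpg and Ddx28 the window is that of the RefSeq gene, although their array clusters lie elsewhere or on the other strand, as described below. No match to one of these words is a match to another, and a match describes the window only.

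Of the 19 genes, 8 were lower in the knockdown (42.1%) and 11 were higher (57.9%). Among all 2395 listed transcript clusters, 59.9% were lower and 40.1% were higher. The median log2 difference was 0.10 over the 19 genes and -0.16 over the whole table. The members thus leaned to the higher side where the table leaned to the lower side, but without a spread between arrays that contrast has no test.

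By group, the median log2 difference was 0.23 for the core spliceosome, 0.14 for the SR symbols, -0.08 for the RNA-binding motif pair, -0.03 for the helicases and -0.97 for the export pair, the last set by Nxf7. Groups of 2 to 8 genes with no error cannot be ranked.

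**Figure D1:**
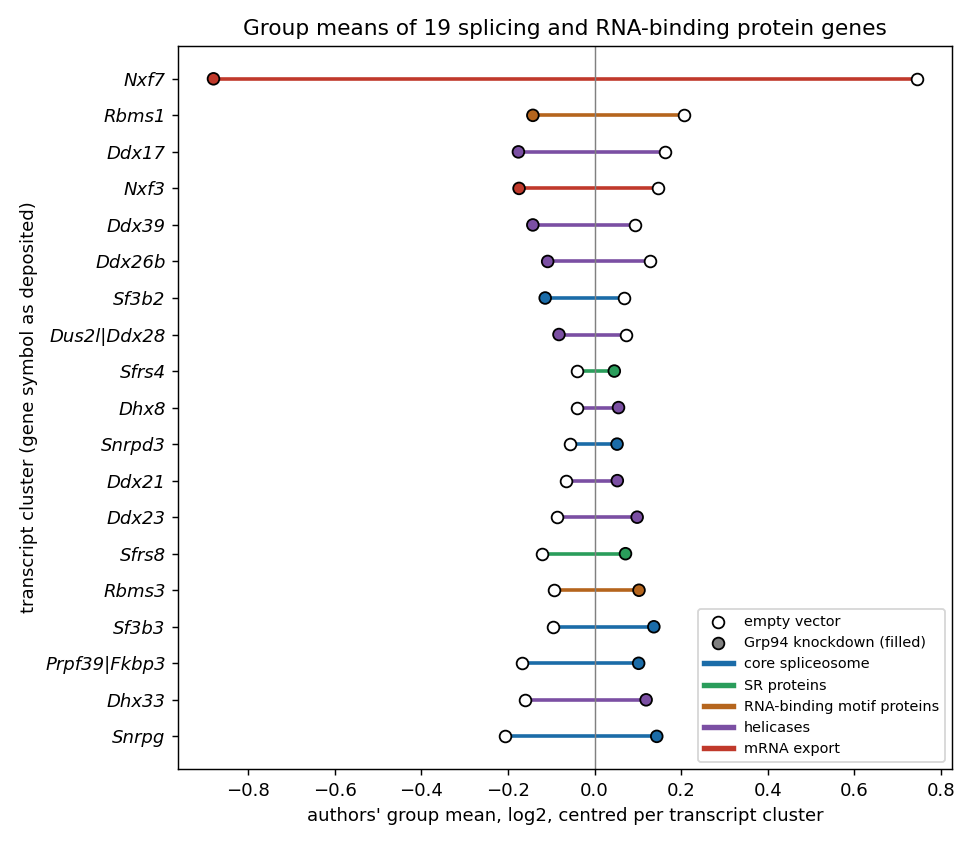
Authors' group means of the 19 transcript clusters (log2, centred per transcript cluster) for the vector group (open circles, read as the empty vector) and Grp94 knockdown (filled circles), ordered by the difference, with lines coloured by functional group and no error bars, since values per array were not used. Nxf7 spans 0.75 to -0.88, while no other member has a mean beyond 0.21 on either side of 0.

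The differences were small apart from a single gene. The median size was 0.23 on the log2 scale (1.18-fold) for the 19 genes and 0.25 (1.19-fold) for the whole table, and 7 of the 19 were above the latter. At a fold of 1.3 (0.38 on the log2 scale), 1 of the 19 was past the limit on the lower side, where 16.1% of all transcript clusters were, and none on the higher side, where 6.26% were. That gene was Nxf7. Just short of the limit were Snrpg at 1.27-fold higher and Rbms1 at 1.27-fold lower. At a fold of 1.2, 4 members were lower (Nxf7, Rbms1, Ddx17 and Nxf3) and 3 were higher (Snrpg, Dhx33 and Prpf39), beside 31.8% and 14.8% of all transcript clusters. Without Nxf7 the remaining 18 ran from -0.35 to 0.35.

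**Figure D2:**
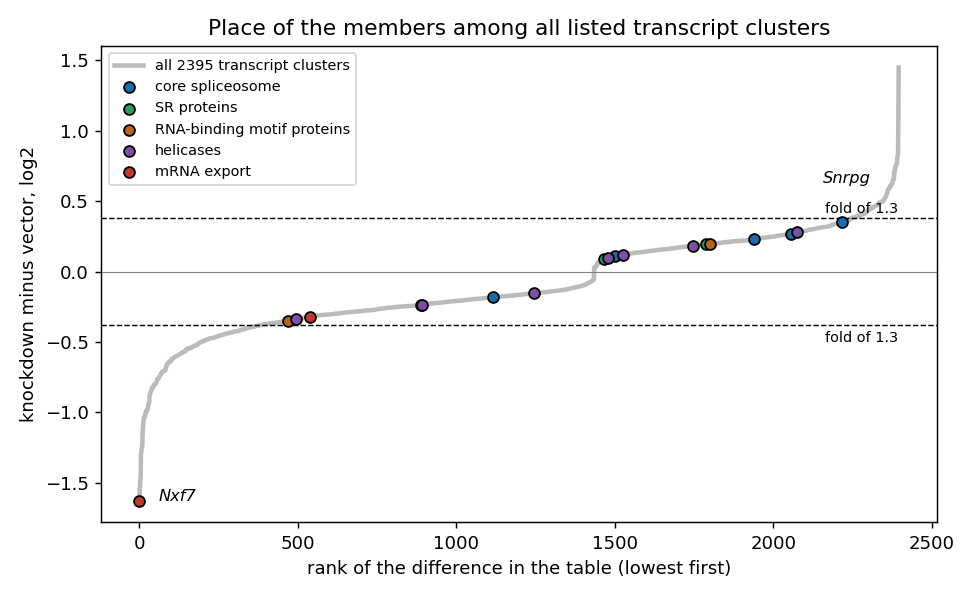
Log2 difference (knockdown minus vector, y axis) of all 2395 transcript clusters in rank order (grey line) with the 19 members as points coloured by functional group, and dashed lines at a fold of 1.3. Nxf7 lies at rank 1 and all other members lie between the dashed lines.

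The mRNA export group held the largest difference of the table. The group is named from the Nxf symbol, and whether its members export mRNA was not tested. Nxf7, an X-linked paralogue of the general export receptor Nxf1, had a mean of 0.75 with the vector and -0.88 in the knockdown. Its log2 difference of -1.63 (3.09-fold lower) ranked first by size of 2395, ahead of the knockdown target. Its transcript cluster (10606792, 43 probes) lies on the minus strand of chromosome X, 132114094 to 132133316 in the deposited coordinates, whose genome build is not given in the sources used here. The positions of transcript clusters below are also those of the table, so they cannot be set against the GRCm38.p6 windows printed above.

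Nxf3, another X-linked paralogue, had the same sign with a far smaller difference. Its mean was 0.15 with the vector and -0.17 in the knockdown, a log2 difference of -0.32 (1.25-fold lower). It lies 473321 bases from Nxf7 on the same strand (chromosome X, 132606638 to 132619790). The log2 differences of the pair were 1.31 apart. Nxf1 and Nxf2 were not listed, so nothing is known here of the receptor that exports most mRNA.

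Core spliceosome genes were higher in 4 of 5 cases, where 40.1% of all transcript clusters were, with a median log2 difference of 0.23. These 5 are all that was listed of 34 RefSeq genes with these symbol starts. The higher rows include Snrpg and a row shared by Prpf39 and Fkbp3, whose limits are given below. The group was not recounted without Snrpg. Snrpg, a protein of the Sm ring, had means of -0.21 with the vector and 0.14 in the knockdown, a log2 difference of 0.35. Snrpd3 (chromosome 10, 74980766 to 74998210), a further Sm protein, had means of -0.06 and 0.05 and a difference of 0.11, among the smallest of the 19.

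The Snrpg value cannot be assigned with certainty. Its transcript cluster has 9 probes, the fewest of any member, spans 870 bp and lies on the minus strand of chromosome 17 (26235318 to 26236187), whereas the RefSeq gene lies on another chromosome and on the plus strand. It is the only member placed on another chromosome than its gene. Whether its probes read Snrpg or a copy of it was not tested.

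The 2 listed subunits of the SF3b complex of the U2 snRNP, which contacts the branch site, had opposite signs. Of 9 RefSeq genes that start with Sf3, the other 7 were not listed and have no value here. Sf3b2 (chromosome 19, 5273932 to 5295448, 43 probes) had means of 0.07 with the vector and -0.11 in the knockdown, a log2 difference of -0.18. Sf3b3 (chromosome 8, 113334139 to 113370676, 27 probes) had means of -0.10 and 0.14, a difference of 0.23. The subunits were therefore 0.41 apart on the log2 scale, in opposite directions.

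Prpf39, a factor of the U1 snRNP that recognises the 5′ splice site, had means of -0.17 and 0.10 and a log2 difference of 0.27. Its transcript cluster (chromosome 12, 66143607 to 66164373) is shared with Fkbp3, a prolyl isomerase, so the probes do not separate the genes by name. The cluster lies on the plus strand, which is that of Prpf39, while Fkbp3 lies on the minus strand in RefSeq.

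Both genes listed under the older SR protein symbols were higher. Sfrs4 (chromosome 4, 131429571 to 131457623), now Srsf4 and the gene of the SR protein SRp75, had means of -0.04 with the vector and 0.05 in the knockdown, a log2 difference of 0.09 (1.06-fold), the smallest of the 19. Sfrs8 (chromosome 5, 130007106 to 130077259), now Sfswap, a splicing regulator outside the classical SR family, had means of -0.12 and 0.07 and a difference of 0.19 (1.14-fold). Of the 11 RefSeq genes that now start with Srsf, only Srsf4 was listed.

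Of the 21 RefSeq hnRNP genes none was listed, nor was any of the 43 Rbm genes outside the Rbms group. Neither was therefore shown to differ or not to differ. Rbms1 and Rbms3, single-stranded nucleic acid binding proteins, were listed, with opposite signs. Rbms1 had means of 0.21 with the vector and -0.14 in the knockdown, a log2 difference of -0.35. Rbms3 (chromosome 9, 116486398 to 117261683, 40 probes) had means of -0.09 and 0.10, a difference of 0.20, which placed the pair 0.54 apart. The Rbms1 cluster (chromosome 2, 60589278 to 60589468) spans 191 bp, or 0.0894% of the length of its RefSeq gene, so that its 25 probes read a short stretch and not the whole transcript.

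**Figure D3:**
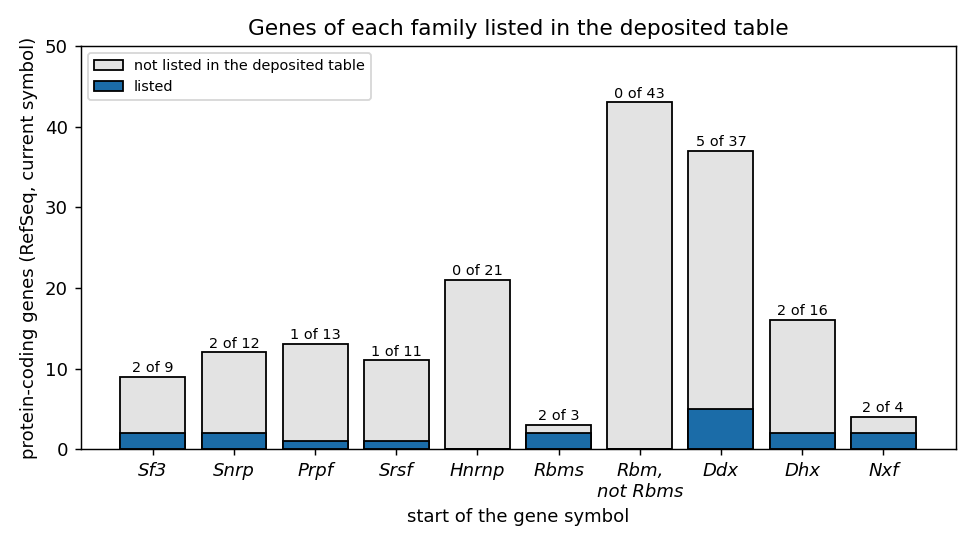
Number of protein-coding RefSeq genes by start of the current symbol (bars) and number of them listed in the deposited table (blue). None of 21 Hnrnp genes and none of 43 Rbm genes outside Rbms is listed, against 2 of 4 Nxf and 2 of 3 Rbms genes.

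Counted over all these symbol starts, 17 of 169 protein-coding genes were listed (10.1%), against 10.3% of all 21896 protein-coding genes in RefSeq. The difference from 19 comes from Ddx26b and Sfrs8, which RefSeq has since renamed. The genes carried by the array and those left out for low expression are not known, so these shares say only how full the table is.

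The 8 helicases were split evenly, with 4 lower and 4 higher and a median log2 difference of -0.03. Ddx17, a partner of Ddx5 in splicing, transcription and microRNA processing, had means of 0.16 with the vector and -0.18 in the knockdown, a log2 difference of -0.34 (chromosome 15, 79358126 to 79377171, 60 probes). Ddx39, now Ddx39a, which acts in mRNA export beside its close paralogue Ddx39b, had means of 0.09 and -0.14, a difference of -0.24 (chromosome 8, 86239098 to 86247247). Ddx5 and Ddx39b themselves were not listed.

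The other helicase symbols on the lower side were less secure. Ddx26b, now Ints6l, is a relative of an Integrator subunit, a complex that cleaves nascent small nuclear RNAs, and is not a helicase by its current name. Its means were 0.13 and -0.11, a log2 difference of -0.24 (chromosome X, 53708034 to 53761020). Ddx28, a mitochondrial helicase, shares its transcript cluster with Dus2l, now Dus2, a tRNA dihydrouridine synthase. The cluster had means of 0.07 and -0.08 and a difference of -0.15, and lies on the plus strand of chromosome 8 (108535407 to 108577719), which is the strand of Dus2 in RefSeq and not that of Ddx28.

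The helicases were also read from lists by role. Of 10 helicases assigned to the spliceosome itself 2 were listed, both higher, while Ddx17, which also acts in splicing, was assigned to the list of others and was lower. Ddx23 (chromosome 15, 98476225 to 98493315), which helps U6 replace U1 at the 5′ splice site, had means of -0.09 and 0.10 and a log2 difference of 0.19. Dhx8 (chromosome 11, 101594270 to 101629446), which releases the spliced mRNA, had means of -0.04 and 0.06 and a difference of 0.10.

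Of 16 nucleolar and ribosome assembly helicases 2 were listed as well. Dhx33, which acts in ribosomal RNA synthesis, had means of -0.16 with the vector and 0.12 in the knockdown, a log2 difference of 0.28 (chromosome 11, 70797593 to 70817934). Ddx21 (chromosome 10, 62042995 to 62065046), a nucleolar helicase of ribosomal RNA processing, had means of -0.07 and 0.05, a difference of 0.12. The 4 lower helicases were all from the list of 16 others, which holds Ddx17 and the export-related Ddx39. No gene was listed from the lists of 11 further cytoplasmic, export and translation helicases and of 3 RNA sensing helicases. The list of others also holds Ddx28 and Ddx26b. The split by role depends on where Ddx17, Ddx39 and Ddx28 are placed, and nothing is read from it.

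Other genes of RNA processing, whose symbols the rule does not reach, were read from 7 lists with 184 genes. Of these, 19 were listed, where 10.3% of all protein-coding genes were. Of the 19, 10 were lower and 9 higher, beside 59.9% and 40.1% of all transcript clusters, with a median log2 difference of -0.10. Past a fold of 1.3 was 1 on each side, beside 16.1% (lower) and 6.26% (higher) of all transcript clusters. Xpot, the exporter of tRNA, had means of 0.21 with the vector and -0.24 in the knockdown, a log2 difference of -0.46. Rbbp6, a ubiquitin ligase of the mRNA 3′ end processing machinery, had means of -0.21 and 0.26 and a difference of 0.47. Both were further from 0 than any member but Nxf7.

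The SR protein kinases Clk3 and Clk2, which phosphorylate SR proteins, had log2 differences of -0.28 and -0.19, while both listed SR symbols were above 0. Lsm4, of the Sm-like ring of U6, had -0.10. Of the Sm proteins, Snrpd3 had 0.11, and the Snrpg row, which cannot be assigned with certainty, had 0.35. Of 25 U2AF, branch site and step factors and of 14 exon junction and Upf decay genes none was listed.

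Among 45 tissue splicing regulators and related RNA-binding proteins 7 were listed, 4 lower and 3 higher, led by the neuronal Elavl4 (-0.22) and Elavl2 (0.21), whose differences had opposite signs. Among 32 export genes 7 were listed, 3 lower and 4 higher, led by Xpot and by Tpr of the nuclear pore basket (-0.32), whose cluster is shared with BC003331. Cpsf4, a subunit of the cleavage and polyadenylation factor, had a log2 difference of 0.18, and both listed genes of 22 in that list were higher.

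**Figure D4:**
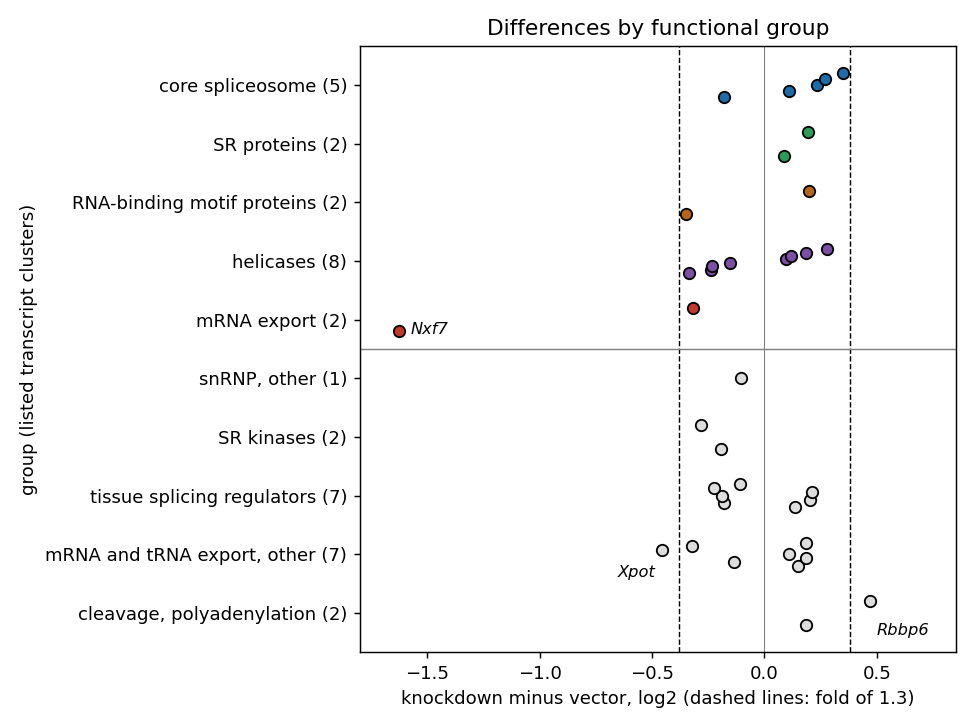
Log2 difference (knockdown minus vector, x axis) of each listed transcript cluster by functional group, with the 19 members in colour above the line, other RNA processing genes in grey below it, and dashed lines at a fold of 1.3. Past these lines are Nxf7 at -1.63, Xpot at -0.46 and Rbbp6 at 0.47.

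Of the 8 lower members 3 lay on chromosome X (Nxf7, Nxf3 and Ddx26b), and none of the 11 higher ones did. Of all listed transcript clusters on the lower side, 4.32% were on that chromosome, and of those on the higher side 2.19%. The rule takes Nxf genes by symbol, and Nxf7 and Nxf3 are X-linked paralogues that lie close together. The members are thus not an even sample of chromosomes, and nothing is read from this contrast. Around Nxf7 and Nxf3, within 1 Mb of either, the other listed clusters were Armcx1 at -0.29 and a cluster shared by Gprasp2 and Gprasp1 at -0.36, both lower, and 2900062L11Rik at 0.39, which was higher.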

How the data were processed

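The authors hybridised RNA of transfected N2a cells to 8 arrays (Affymetrix Mouse Gene 1.0 ST) and processed the scans with Agilent GeneSpring GX. Genes under the 20th percentile of expression were left out by the authors. Groups came from the sample titles. The values used are the authors' deposited log2 mean of each group, centred for each transcript cluster. The summarization of probes, normalization and genome build were not given in the sources used here. The deposited table also holds the authors' p-values, adjusted p-values and fold changes, which were not used, except to check that 0 rows exceed an adjusted p-value of 0.01.

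The difference is the knockdown mean minus the vector mean, and a fold is 2 to the power of its size. Precision is limited by the number of arrays, and no error can be given. The first matching symbol of a row set its functional group. Genes named are Hsp90b1, members past a fold of 1.3, the leading 3 members of each group, those nearest the limit, and the leading 2 of each further list. The other members were named so that each is accounted for, and the genes around Nxf7 and Nxf3 and the promoters printed were chosen after their values were seen. Members, lists and motifs were chosen with earlier results of these data known. All 19 rows were matched by gene identifier to RefSeq. Alternatives changed the fold limit, shared rows, counting unit, membership by the first symbol and zero point, and 2 more (strand or chromosome, renamed symbols) were added after the data were seen. The software was pandas 2.3.3, numpy 2.4.6, scipy 1.17.1 and matplotlib 3.10.9 under Python 3.11.15, and the counting was tested on simulated data.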

Additional observations from a re-analysis of the deposited data

How the results depend on the processing

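Of 32 alternatives, 27 left the value close to that reported, but this count does not measure robustness. A share counted as close if it lay within the confidence interval of the reported share, which is wide for so few genes. In the SR, RNA-binding motif and export groups, keeping rows of 1 symbol removed no row, so nothing could change. Medians of groups were not re-centred, which would have raised each of them. The number of members past the fold limit went from 1 to 7 at a fold of 1.2, since a lower limit keeps more. It was 5 (1 lower and 4 higher) when differences were re-centred on the median of all rows (-0.16), where Dhx33, Prpf39, Sf3b3 and Snrpg joined Nxf7. Re-centring moved 1 member, Ddx28, from lower to higher. It evens out the directions of listed rows by construction, and the true zero point is not known. The median of the helicases, -0.03, turned to 0.10 with rows of 1 symbol, without rows off the strand or chromosome of their RefSeq gene, and without symbols since renamed, each of which removes a lower helicase. No direction can be drawn from that median. No paired analysis was possible because the table holds a mean per group and no value per array, and for the same reason no array could be left out. Changes too small to pass the authors' limit, and genes of low expression, are outside these data.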
